A study of Mus musculus with 12 samples.

Results

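The genes described here are 10 genes of the response to low oxygen through the transcription factor HIF-1: Hif1a itself, the oxygen sensing hydroxylases Egln1 and Egln3, and the HIF-1 targets Vegfa, Bnip3, Bnip3l, Pdk1, P4ha1, Ddit4 and Kdm3a. They were chosen by name, with earlier results of these data known. The array gave a value for 18194 genes. A gene took the value of the brightest of the probe sets (groups of short probes read as 1 value) that name it alone, and 9 of the 10 had such a probe set. All 3 probe sets of Bnip3l, a mitochondrial autophagy receptor, also name its pseudogene Bnip3l-ps, so no value is given for it.

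Expression was read on 12 Affymetrix arrays of CD8 T cells sorted from C57bl/c mice aged 6 to 8 weeks. The groups are PD-1+ Tim-3+ 2B4+ tumour-infiltrating lymphocytes (Tim-3+ TIL, n = 4), called exhausted in the labels, PD-1+ Tim-3- 2B4- lymphocytes of the same kind of tumour (Tim-3- TIL, n = 3), called stem-like, and naive cells from spleens of mice without a tumour (naive, n = 5). Tumours were grown from B16F10-GP melanoma cells, a single line, injected into the flank, and cells were taken between day 17 and day 19, at a tumour area of about 1 cm2. The labels describe enzyme digestion for tumours and not for spleens, and do not say whether mice were pooled or whether each array is a separate animal, and p-values therefore measure only the spread between these samples. In sorted bulk RNA, fewer cells carrying a transcript and less of it per cell cannot be told apart.

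HIF-1 is a pair of proteins, HIF-1 alpha (from Hif1a) and ARNT. In cells with enough oxygen, the prolyl hydroxylases encoded by Egln1, Egln2 and Egln3 mark HIF-1 alpha, the VHL ubiquitin ligase binds the marked protein, and it is degraded. When oxygen is low the protein persists, pairs with ARNT and binds hypoxia response elements, whose core is ACGTG or GCGTG, beside genes for glycolysis, blood vessel growth, mitochondrial turnover and its own hydroxylases. Because this control acts on protein, a Hif1a transcript level is not a reading of HIF-1 activity. In CD8 T cells, antigen receptor signalling and cytokines also raise HIF-1 alpha without low oxygen.

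The stretches below are shown because they hold the response element cores beside the starts of the 6 genes that moved the same way in both TIL groups against naive cells. They are 100 bases each of the RefSeq promoter table for GRCm38.p6, on the strand of the gene, 5′ to 3′, all of it before the start site, with ACGTG or GCGTG on either strand in capitals. Hif1a, Egln3 and Bnip3 were higher in TIL, at chr12:73907727-73907826 (plus strand), chr12:54204015-54204114 (minus) and chr7:138909527-138909626 (minus). Pdk1, Ddit4 and Kdm3a were lower in TIL, at chr2:71873124-71873223 (plus), chr10:59951871-59951970 (minus) and chr6:71632918-71633017 (minus).
Hif1a: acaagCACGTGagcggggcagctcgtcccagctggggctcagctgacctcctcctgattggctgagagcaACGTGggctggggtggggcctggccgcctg
Egln3: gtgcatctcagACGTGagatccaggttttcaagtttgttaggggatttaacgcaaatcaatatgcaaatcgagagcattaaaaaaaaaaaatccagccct
Bnip3: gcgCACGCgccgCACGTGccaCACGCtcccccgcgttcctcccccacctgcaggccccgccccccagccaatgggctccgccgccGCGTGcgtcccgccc
Pdk1: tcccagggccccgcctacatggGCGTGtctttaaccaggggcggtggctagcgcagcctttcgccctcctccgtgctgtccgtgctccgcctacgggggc
Ddit4: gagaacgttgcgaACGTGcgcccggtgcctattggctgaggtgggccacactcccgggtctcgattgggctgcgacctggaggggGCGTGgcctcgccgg
Kdm3a: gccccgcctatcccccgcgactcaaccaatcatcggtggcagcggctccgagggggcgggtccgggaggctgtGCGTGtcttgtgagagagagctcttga

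A core stood in 9 of the 13 windows (250 bases before to 50 after a start) that the table holds for the 9 measured genes, and each of the 9 genes had at least 1 window with a core. Of all 32851 windows, 43.8% held one, a share per window to be read beside the 9 of 13. The share of all genes with a core in any window was not computed. The window of Bnip3 held 5 matches, from position -117 to position -35 relative to the start, where CACGTG counts as 2 because it reads ACGTG on both strands. Windows with 4 or more matches made up 3.9% of all windows, and of the 13 only that of Bnip3 was among them. Hif1a had 3 matches, Egln3 had 1, Ddit4 had 2, Pdk1 had 2 of which the other runs across the start site and so is not in the stretch shown, and Kdm3a had 1 in a single window of its 3. GC content of the windows that these stretches come from ran from 54.7% in Egln3 to 71.7% in Bnip3, against a median of 52.7% over all windows. Matches are letters in a short window and not sites of binding.

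The sorted cells carried their defining transcripts. All 6 measured CD8 T cell markers of the 7 listed lay above log2 5.71 in every group, percentile 40 of the tested genes, under which a level may be background. Havcr2, which encodes Tim-3, averaged 11.66 ± 0.14 in Tim-3+ TIL, 7.08 ± 0.49 in Tim-3- TIL and 4.63 ± 0.23 in naive cells (log2 intensity, SD). Pdcd1, which encodes PD-1, averaged 11.77 ± 0.17 in Tim-3+ TIL, 11.37 ± 0.089 in Tim-3- TIL and 5.14 ± 0.31 in naive cells. Arrays of every group fell into sets that no label names but that hold lower and higher replicate numbers: set A has Tim-3+ replicates 1 and 2, Tim-3- replicate 1 and naive replicates 1 and 2, and set B holds the remaining 7. Differences between same-group arrays had an SD of 0.263 to 0.361 (log2) inside a set and 0.351 to 0.448 across sets, and values by set are given for the results that they touch.

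Of the 9 measured genes, 2 rose (Bnip3, Vegfa), 1 fell (Hif1a) and 6 did not pass in Tim-3+ against Tim-3- TIL. Tests are limma's, with Benjamini-Hochberg adjusted p below 0.05 over all genes, and of all genes 13.5% passed in that comparison, 7.77% rising and 5.77% falling. In Tim-3- TIL against naive cells 3 rose (Hif1a, Egln3, Bnip3) and 3 fell (Pdk1, Ddit4, Kdm3a), where 34.4% of all genes passed, 16.1% rising and 18.3% falling. Tim-3+ TIL against naive cells had 5 that rose (those 3, Vegfa and Egln1) and the same 3 that fell, where 41.5% of all genes passed, 20.1% rising and 21.4% falling. Both comparisons with naive cells use the same naive arrays. The median log2 change of the 9 was 0.15, -0.10 and 0.41 in the 3 comparisons in that order, beside 0.011, -0.063 and -0.066 for all genes. P4ha1 passed in none.

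Groups did not overlap for 6 of the 9 genes in Tim-3+ against Tim-3- TIL, 6 in Tim-3- TIL against naive and 8 in Tim-3+ TIL against naive, beside 22.7%, 35.1% and 37.3% of all genes. Among the HIF-1 targets, Bnip3 and Egln3 rose in both TIL groups against naive cells, and Pdk1, Ddit4 and Kdm3a fell in both.

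**Figure D1:**
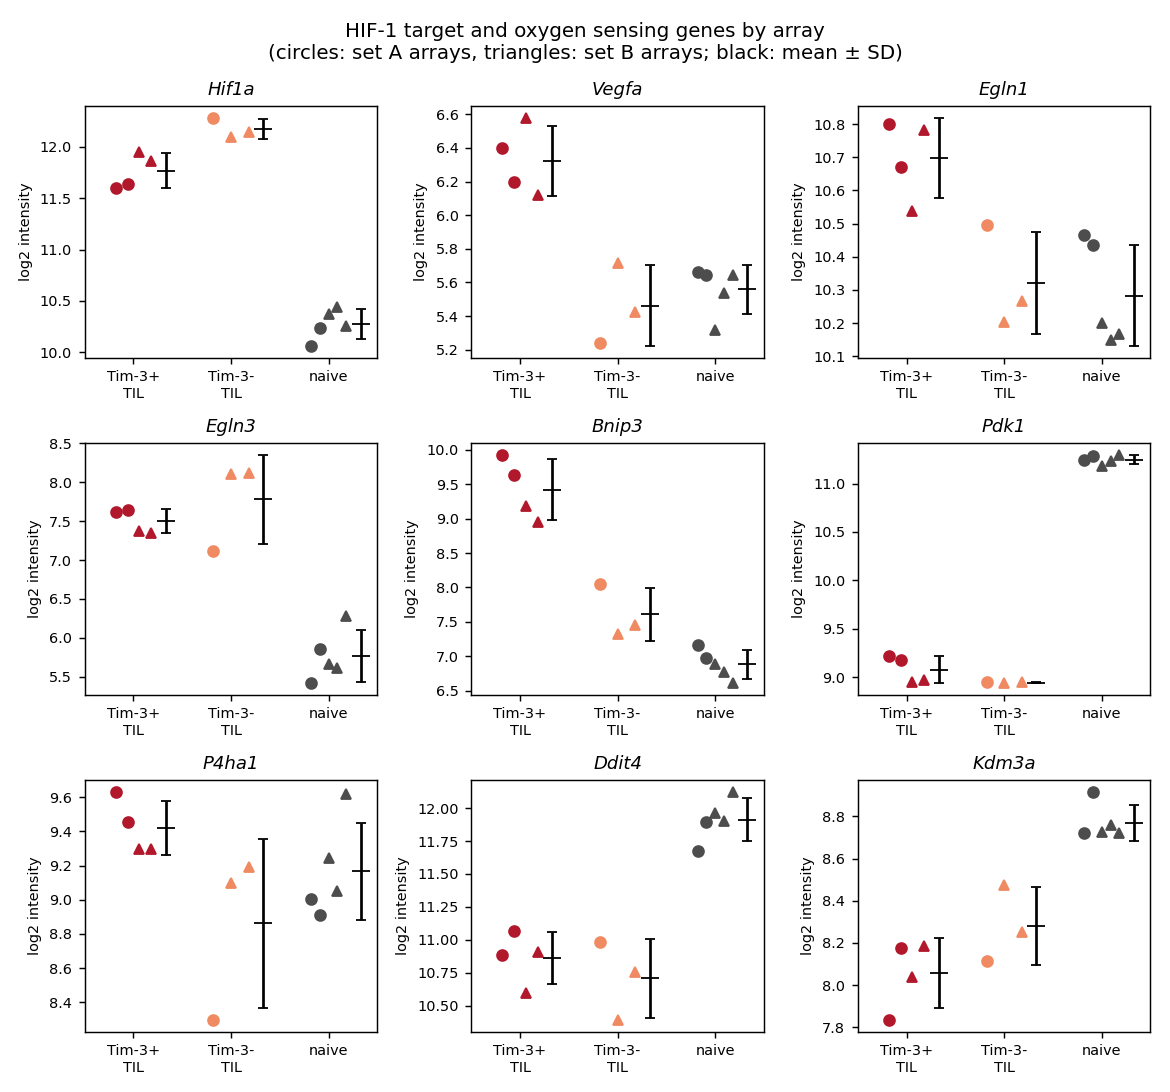
Log2 intensity (vertical axes, a scale of its own for each gene) of the 9 measured genes on every array of Tim-3+ TIL (n = 4), Tim-3- TIL (n = 3) and naive cells (n = 5); circles are set A, triangles set B, and black bars the mean ± SD. Hif1a, Egln3 and Bnip3 lie above naive cells in both TIL groups, Pdk1, Ddit4 and Kdm3a below, and every Tim-3+ array of Vegfa and Egln1 lies above the other groups.

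Hif1a encodes the oxygen regulated subunit. Its log2 intensity was 11.61, 11.64, 11.96 and 11.86 in Tim-3+ TIL replicates 1 to 4, 12.29, 12.09 and 12.15 in Tim-3- TIL replicates 1 to 3, and 10.06, 10.24, 10.37, 10.44 and 10.26 in naive replicates 1 to 5. No array of one group reached into another, and Tim-3- TIL were the highest. Against naive cells it rose 3.74-fold in Tim-3- TIL (log2 change 1.90 ± 0.12 SE, adjusted p = 1.81e-08) and 2.82-fold in Tim-3+ TIL (1.49 ± 0.11, adjusted p = 4.42e-08). All 4 Hif1a probe sets gave these directions, with log2 changes of 1.40 to 2.38 in Tim-3- TIL and 0.77 to 1.59 in Tim-3+ TIL, and all passed in a fit of every probe set, where 33.2% and 40.3% of probe sets passed.

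Between the TIL groups Hif1a was lower in Tim-3+ cells, by a small margin: a log2 change of -0.41 ± 0.12 (limma adjusted p = 0.0377). Leaving out Tim-3+ replicate 1 or 2, or any 1 of the 3 Tim-3- arrays, ended that call, with adjusted p between 0.0697 and 0.114 and changes of -0.35 to -0.45. It was -0.66 within set A (adjusted p = 0.0512) and -0.21 within set B (adjusted p = 0.289). The 4 probe sets ran from -0.26 to -0.79, and the third brightest alone passed among all probe sets (-0.79, adjusted p = 0.00473), where 10.9% did.

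Egln3 encodes PHD3, a hydroxylase that is itself a HIF-1 target. Tim-3+ TIL had log2 intensities of 7.62, 7.65, 7.38 and 7.35, Tim-3- TIL had 7.12, 8.11 and 8.11, and naive cells had 5.41, 5.86, 5.66, 5.61 and 6.29. Every TIL array lay above every naive array, and Tim-3- replicate 1 lay below all Tim-3+ arrays while the other 2 lay above them. Against naive cells the rise was 4.05-fold in Tim-3- TIL (2.02 ± 0.23, adjusted p = 8.78e-06) and 3.32-fold in Tim-3+ TIL (1.73 ± 0.21, adjusted p = 1.07e-05). The naive mean, 5.77 ± 0.33, lies close to the level that may be background. The dimmer Egln3 probe set, with a naive mean of 5.77 ± 0.26, gave smaller rises, of 1.44 ± 0.15 in Tim-3- TIL (adjusted p = 4.72e-06 over all probe sets) and 0.81 ± 0.14 in Tim-3+ TIL (adjusted p = 0.000260), so the size of the rise differs between probe sets.

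Between the TIL groups the Egln3 difference of -0.28 ± 0.24 did not pass (adjusted p = 0.546, 95% interval -0.80 to 0.23), and it was 0.51 in set A but -0.75 in set B. That dimmer probe set, with less spread in Tim-3- TIL, averaged 6.58 ± 0.14 in Tim-3+ and 7.22 ± 0.17 in Tim-3- TIL and passed (-0.63 ± 0.15, limma adjusted p = 0.0169 over all probe sets).

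Egln1 encodes PHD2, the main oxygen sensor of most cells. Its log2 intensity was 10.80, 10.67, 10.54 and 10.78 in Tim-3+ TIL, 10.50, 10.20 and 10.27 in Tim-3- TIL, and 10.46, 10.43, 10.20, 10.15 and 10.17 in naive cells. All Tim-3+ arrays were above all others, and the other groups overlapped. The rise in Tim-3+ TIL was 1.33-fold against naive cells (0.41 ± 0.11, adjusted p = 0.00549; 0.29 within set A, adjusted p = 0.109) and the difference from Tim-3- TIL did not pass (0.38 ± 0.12, adjusted p = 0.0547).

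That last difference depended on the setting: with array set as a blocking term it passed (0.34, adjusted p = 0.0193), as it did in the dimmer Egln1 probe set (0.52 ± 0.11, limma adjusted p = 0.00606 over all probe sets). Against naive cells, Tim-3- TIL had Egln1 at 0.039 ± 0.11 (adjusted p = 0.833, 95% interval -0.21 to 0.29).

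Bnip3 encodes a receptor on the outer mitochondrial membrane that marks mitochondria for autophagy. It was the only one of the 9 genes to rise in each of the 3 comparisons, and Hif1a was the only other gene to pass in all of them. Levels were 9.93, 9.64, 9.18 and 8.95 in Tim-3+ TIL, 8.05, 7.32 and 7.46 in Tim-3- TIL, and 7.16, 6.98, 6.89, 6.77 and 6.61 in naive cells (log2 intensity), with no overlap between groups. It rose 5.83-fold in Tim-3+ TIL against naive cells (2.54 ± 0.20, adjusted p = 1.39e-07) and 3.52-fold against Tim-3- TIL (1.81 ± 0.23, adjusted p = 0.000107).

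Within each group the set A arrays of Bnip3 were the higher ones, and the difference between TIL groups was 1.73 on the set A arrays and 1.67 on the set B arrays. The rise in Tim-3- TIL against naive cells was 1.66-fold (0.73 ± 0.22, adjusted p = 0.0184), and without Tim-3- replicate 1 it was 0.51 and did not pass (adjusted p = 0.105). A blocking term for array set gave 0.77 (adjusted p = 0.000226). Bnip3 is read by 1 probe set.

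Pdk1 encodes a kinase that shuts pyruvate dehydrogenase and so keeps pyruvate out of the citric acid cycle. This HIF-1 target was at 9.22, 9.18, 8.96 and 8.97 in Tim-3+ TIL, 8.95, 8.94 and 8.95 in Tim-3- TIL, and 11.24, 11.28, 11.18, 11.23 and 11.30 in naive cells. Naive arrays were far above all TIL arrays. It fell by 2.30 on the log2 scale in Tim-3- TIL (4.93-fold lower than naive, SE 0.092, adjusted p = 3.06e-10) and changed by -2.17 in Tim-3+ TIL (4.49-fold lower, SE 0.084, adjusted p = 7.97e-11).

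All 4 Pdk1 probe sets fell in both TIL groups, with log2 changes of -1.98 to -3.56 in Tim-3- TIL and -1.99 to -3.97 in Tim-3+ TIL, so the size of the fall differs between probe sets. The dimmest of the 4 averaged below 5.71 in both TIL groups, so its change against naive cells is at best a lower bound. Between TIL groups Pdk1 was at 0.13 ± 0.096 (adjusted p = 0.453, 95% interval -0.071 to 0.34). The other 3 probe sets gave -0.0099, -0.41 and -0.39, of which none passed, so no direction between TIL groups is given.

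**Figure D2:**
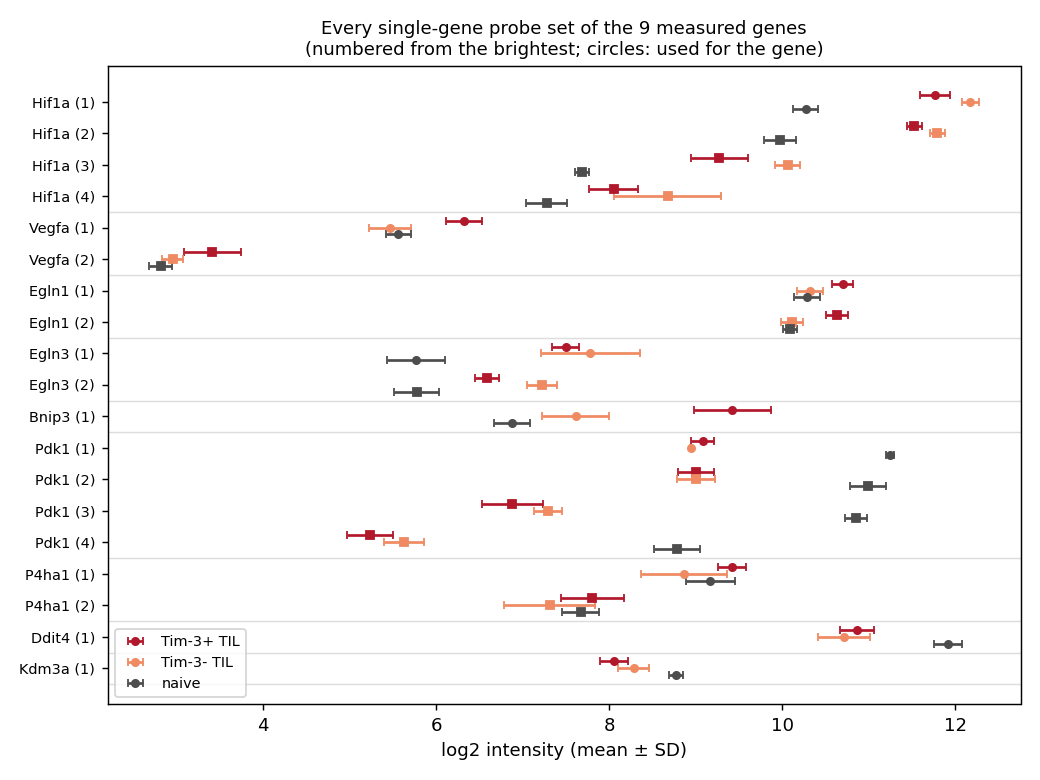
Mean log2 intensity ± SD (horizontal axis) in Tim-3+ TIL, Tim-3- TIL and naive cells for all 19 single-gene probe sets of the 9 genes, numbered from the brightest, with circles for those used. The 4 probe sets of Hif1a lie higher and the 4 of Pdk1 lower in both TIL groups than in naive cells.

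Vegfa encodes the main growth factor for blood vessels and is a classic HIF-1 target. It was at 6.40, 6.20, 6.58 and 6.12 in Tim-3+ TIL, 5.24, 5.72 and 5.42 in Tim-3- TIL, and 5.66, 5.64, 5.32, 5.53 and 5.65 in naive cells. Tim-3+ arrays stood above all others, and Tim-3- and naive arrays overlapped. The rise was 1.82-fold against Tim-3- TIL (0.86 ± 0.14, adjusted p = 0.00103) and 1.70-fold against naive cells (0.76 ± 0.13, adjusted p = 0.000198).

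Both of those comparison groups averaged below 5.71, so the Vegfa folds are at best lower bounds. The other Vegfa probe set averaged 3.41 ± 0.33 in Tim-3+ TIL, 2.95 ± 0.12 in Tim-3- TIL and 2.81 ± 0.13 in naive cells, below 5.71 in every group, so no change is read from it. Tim-3- TIL against naive cells had Vegfa at -0.10 ± 0.14 (adjusted p = 0.627, 95% interval -0.40 to 0.20).

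Tumour cells and myeloid cells also make Vegfa. Of 10 melanoma markers, 6 rose and 1 fell in Tim-3+ TIL against naive cells (median 0.76), beside 20.1% and 21.4% of all genes. In Tim-3+ against Tim-3- TIL 0 passed limma's adjusted threshold and 2 had an unadjusted p below 0.05 (median 0.55). The brightest were Pmel, at 6.81 ± 0.49 in Tim-3+ TIL, 7.17 ± 0.26 in Tim-3- TIL and 8.05 ± 0.30 in naive cells, and Sox10, at 6.37 ± 0.19 in Tim-3+ TIL, 6.28 ± 0.046 in Tim-3- TIL and 6.63 ± 0.23 in naive cells. Tyrp1 and Dct, which define pigment cells, averaged 6.77 ± 1.57 and 7.00 ± 1.49 in Tim-3+ TIL, 6.15 ± 1.03 and 6.33 ± 0.77 in Tim-3- TIL, and 3.11 ± 0.17 and 4.08 ± 0.34 in naive cells. The summed linear intensity of the 10 markers was 433.5 to 1428 in Tim-3+ TIL, 515.5 to 804.4 in Tim-3- TIL and 513.8 to 670.5 in naive cells. Pmel, the 1 marker that fell, and Sox10 weigh most in the naive sum, as the other 8 averaged below 5.71 there. The overlap of the sums therefore does not speak to the 6 markers that rose.

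Of 6 neutrophil markers 1 rose and 0 fell in Tim-3+ TIL against Tim-3- TIL, where 7.77% of all genes rose and 5.77% fell. The sum of these markers was 294.7 to 535.7 in Tim-3+ TIL, 142.7 to 167.5 in Tim-3- TIL and 145 to 246.3 in naive cells. The granule protein gene Ltf was the 1 that rose, at 7.92 ± 0.54 in Tim-3+ TIL, 4.66 ± 0.17 in Tim-3- TIL and 4.75 ± 0.20 in naive cells. S100a9 was at 5.59 ± 0.087 in Tim-3+ TIL, below 5.71. The other 5 markers, S100a9 among them, averaged below 5.71 in Tim-3+ TIL and did not pass, so the higher sum there rests on Ltf. Of 12 monocyte and macrophage markers 1 rose and 1 fell between TIL groups, with sums of 532 to 635.7 in Tim-3+ TIL, 641.4 to 707.4 in Tim-3- TIL and 451.4 to 534.5 in naive cells. The one that fell, Cd68, was also the brightest, at 7.46 ± 0.28 in Tim-3+ TIL, 8.28 ± 0.12 in Tim-3- TIL and 6.83 ± 0.41 in naive cells. The one that rose, as Vegfa did, was Cd14, with a log2 change of 0.89 ± 0.20 against Tim-3- TIL (adjusted p = 0.00778) and 1.09 ± 0.17 against naive cells (adjusted p = 0.000149), at a level of 5.21 ± 0.33 in Tim-3+ TIL that is itself below 5.71. Lyz2 was at 5.61 ± 0.95 in Tim-3+ TIL, 4.70 ± 0.33 in Tim-3- TIL and 5.28 ± 0.36 in naive cells and did not pass. The part of tumour and myeloid cells in the Vegfa result was not tested, nor was it for Bnip3 or the other measured genes.

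P4ha1 encodes the catalytic subunit of collagen prolyl hydroxylase. Tim-3+ TIL had 9.63, 9.46, 9.30 and 9.30, Tim-3- TIL had 8.29, 9.10 and 9.19, and naive cells had 9.01, 8.91, 9.24, 9.05 and 9.62. All Tim-3+ arrays were above all Tim-3- arrays, but naive arrays overlapped with both. Nothing passed in the main fit. The log2 change was 0.56 ± 0.21 in Tim-3+ against Tim-3- TIL (adjusted p = 0.107). It was -0.30 ± 0.20 in Tim-3- TIL against naive (adjusted p = 0.280) and 0.25 ± 0.19 in Tim-3+ TIL against naive (adjusted p = 0.303). Within set A the changes against naive cells were larger, at -0.66 in Tim-3- TIL (replicate 1 alone) and 0.59 in Tim-3+ TIL. They were -0.16 and -0.0075 within set B.

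The P4ha1 difference between TIL groups was 0.28 without Tim-3- replicate 1 (adjusted p = 0.382). With the mean of its probe sets it was 0.53 and passed (limma adjusted p = 0.0143). It was 1.25 within set A (adjusted p = 0.0100), which holds that array, 0.15 within set B (adjusted p = 0.654), and 0.60 when array set was a blocking term (adjusted p = 0.0492). Collagen-making fibroblasts and endothelium were read through 10 markers, whose summed intensity was 462.2 to 573.8 in Tim-3+ TIL, 653.5 to 699.5 in Tim-3- TIL and 1135 to 1374 in naive cells. Of these Pecam1, an adhesion molecule of endothelium and of some leukocytes, was at 6.71 ± 0.20 in Tim-3+ TIL, 8.17 ± 0.087 in Tim-3- TIL and 9.77 ± 0.18 in naive cells. It was the brightest of the 10 in every group and weighs most in the sum. The collagen gene Col1a1 was at 6.48 ± 0.18 in Tim-3+ TIL, 6.51 ± 0.046 in Tim-3- TIL and 6.54 ± 0.19 in naive cells. Col1a1, Col1a2, Col3a1 and Dcn passed in no comparison. Of the 10, 1 rose (Sparc) and 3 fell (Pecam1, Cdh5, Kdr) in Tim-3+ TIL against naive cells, beside 20.1% and 21.4% of all genes. Only Pecam1 passed in Tim-3- TIL against naive cells and between TIL groups, and it fell in both. Of all genes 18.3% and 5.77% fell in those comparisons. Pecam1 changed by -3.06 ± 0.12 in Tim-3+ TIL and -1.60 ± 0.13 in Tim-3- TIL against naive cells, and by -1.46 ± 0.13 between TIL groups.

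Ddit4 encodes REDD1, an inhibitor of mTORC1 signalling that low oxygen and other stresses induce. Levels were 10.88, 11.06, 10.60 and 10.91 in Tim-3+ TIL, 10.98, 10.39 and 10.75 in Tim-3- TIL, and 11.67, 11.89, 11.97, 11.90 and 12.13 in naive cells. Naive arrays were all above TIL arrays, and the TIL groups overlapped. It fell by 1.20 on the log2 scale in Tim-3- TIL (2.30-fold lower than naive, SE 0.15, adjusted p = 1.86e-05) and changed by -1.05 in Tim-3+ TIL (2.07-fold lower, SE 0.14, adjusted p = 2.01e-05). The TIL groups differed by 0.15 ± 0.15 (adjusted p = 0.631, 95% interval -0.18 to 0.49).

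Kdm3a encodes a histone H3 lysine 9 demethylase that uses oxygen. It was at 7.83, 8.17, 8.04 and 8.18 in Tim-3+ TIL, 8.11, 8.48 and 8.25 in Tim-3- TIL, and 8.72, 8.92, 8.73, 8.76 and 8.72 in naive cells. Again every naive array was above every TIL array. The log2 change was -0.71 in Tim-3+ TIL (1.64-fold lower than naive, SE 0.10, adjusted p = 6.45e-05) and -0.49 in Tim-3- TIL (1.40-fold lower, SE 0.11, adjusted p = 0.00373). Between TIL groups it was at -0.22 ± 0.12 (adjusted p = 0.281, 95% interval -0.48 to 0.032).

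**Figure D3:**
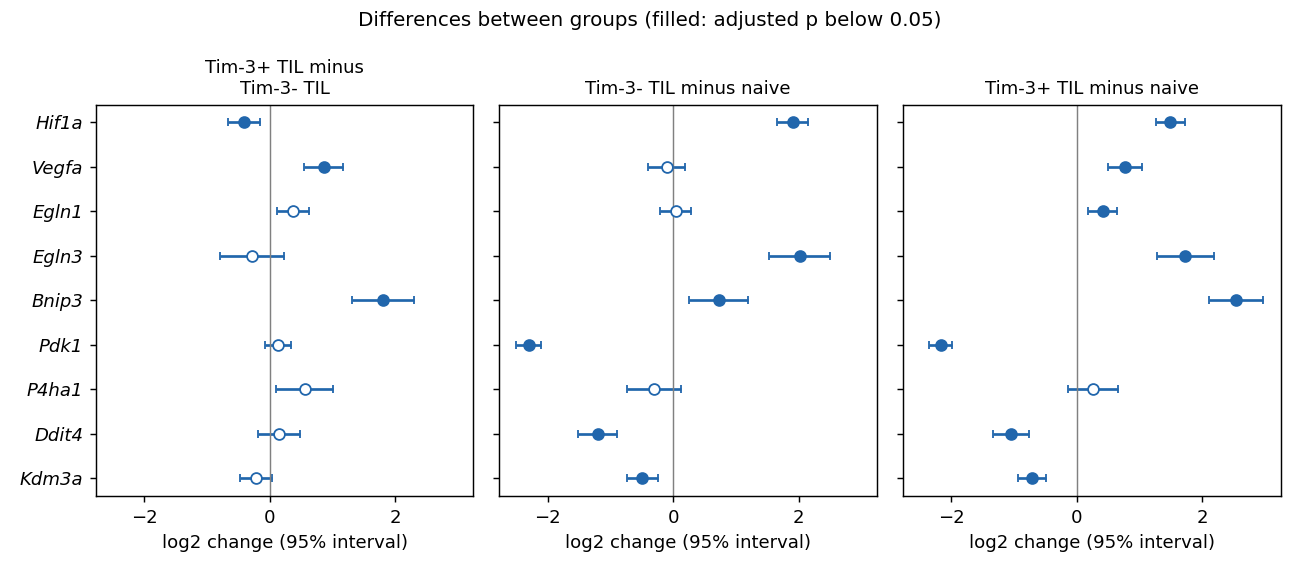
Log2 change (horizontal axis) with its 95% interval for each of the 9 genes in Tim-3+ TIL minus Tim-3- TIL, Tim-3- TIL minus naive and Tim-3+ TIL minus naive; filled points passed at adjusted p below 0.05. Bnip3 lies right of 0 in all 3 panels, and Pdk1, Ddit4 and Kdm3a lie left of 0 in both comparisons with naive cells.

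Transcripts that respond to cell handling, and those of B cells, differed between TIL and naive samples as well. Of 13 dissociation and immediate early genes, 9 were higher and 2 lower at the threshold in Tim-3+ TIL than in naive cells. Of all genes 20.1% rose and 21.4% fell there. In Tim-3- TIL 10 were higher and 0 lower than in naive cells, beside 16.1% and 18.3% of all genes. Tim-3+ against Tim-3- TIL had 2 that rose (Hspa1a, Egr1) and 1 that fell (Jun), beside 7.77% and 5.77%. The 13 genes summed to 12850 to 17720 in Tim-3+ TIL, 16040 to 19380 in Tim-3- TIL and 7399 to 11210 in naive cells. The 5 measured B cell markers summed to 170.8 to 191.9 in Tim-3+ TIL, 203.1 to 220 in Tim-3- TIL and 558.9 to 745.2 in naive cells. Of these 5 markers, 2 fell and 0 rose in each TIL group against naive cells, Cd79a and Cd79b, and Ms4a1, Pax5 and Blk did not pass. Of all genes 21.4% fell in Tim-3+ TIL and 18.3% in Tim-3- TIL. Cd79b, a subunit of the B cell receptor, was at 5.59 ± 0.15 in Tim-3+ TIL, 6.37 ± 0.21 in Tim-3- TIL and 8.89 ± 0.15 in naive cells. The part of handling and of B cells in the changes of the 9 measured genes, Bnip3 among them, was not tested, against naive cells or between TIL groups.

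The rest of the pathway was read through 3 lists with 67 measured genes of 71. The sensing and HIF complex list (19 measured) had 1 gene that rose and 1 that fell between TIL groups (median -0.023), beside 7.77% of all genes rising and 5.77% falling. Against naive cells 10 rose and 5 fell in Tim-3+ TIL (median 0.34), beside 20.1% and 21.4% of all genes. Tim-3- TIL had 7 rising and 3 falling (median 0.25), beside 16.1% and 18.3%.

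Epas1, which encodes HIF-2 alpha, a paralog of HIF-1 alpha, averaged 11.39 ± 0.51 in Tim-3+ TIL, 10.24 ± 0.98 in Tim-3- TIL and 6.67 ± 0.23 in naive cells. It rose by 4.72 ± 0.32 in Tim-3+ TIL (adjusted p = 2.51e-08) and by 3.56 ± 0.35 in Tim-3- TIL (adjusted p = 2.07e-06), and the TIL groups differed by 1.16 ± 0.36, just short of the threshold (adjusted p = 0.0503). Tim-3+ and Tim-3- arrays of Epas1 overlapped, and all TIL arrays lay above all naive arrays.

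Arnt2, which encodes a paralog of ARNT, was at 9.06 ± 0.45 in Tim-3+ TIL, 5.18 ± 0.18 in Tim-3- TIL and 4.84 ± 0.47 in naive cells. It rose by 3.87 ± 0.27 in Tim-3+ against Tim-3- TIL (adjusted p = 4.70e-07), at best a lower bound since the Tim-3- level is below 5.71. Arnt itself was lower in Tim-3+ than in Tim-3- TIL by a small margin (-0.35 ± 0.098, adjusted p = 0.0281), and leaving out Tim-3+ replicate 1, 2 or 4 or Tim-3- replicate 2 or 3 ended the call, with adjusted p of up to 0.124.

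Vhl, the ubiquitin ligase subunit that binds hydroxylated HIF, rose by 0.69 ± 0.13 in Tim-3+ TIL (adjusted p = 0.000438) and by 0.92 ± 0.14 in Tim-3- TIL (adjusted p = 0.000116) against naive cells. Egln2, the third hydroxylase of its family, changed by -0.40 ± 0.096 in Tim-3+ TIL (adjusted p = 0.00357) and by -0.38 ± 0.10 in Tim-3- TIL (adjusted p = 0.0115). Siah1a and Siah2, ubiquitin ligases that act on the hydroxylases, moved in opposite directions. Siah1a changed by -1.83 ± 0.12 in Tim-3+ TIL (adjusted p = 1.51e-08) and by -1.46 ± 0.13 in Tim-3- TIL (adjusted p = 7.68e-07), and Siah2 by 1.56 ± 0.20 in Tim-3+ TIL (adjusted p = 1.59e-05) and by 1.98 ± 0.21 in Tim-3- TIL (adjusted p = 6.05e-06). Cul2, the scaffold of the VHL ligase, rose by 0.82 ± 0.098 in Tim-3+ TIL (adjusted p = 9.51e-06) and by 0.50 ± 0.11 in Tim-3- TIL (adjusted p = 0.00203). Hif1an, which encodes the asparagine hydroxylase FIH, was at 9.23 ± 0.35 in Tim-3+ TIL, 9.62 ± 0.24 in Tim-3- TIL and 9.38 ± 0.18 in naive cells and passed in no comparison, but its probe sets disagreed: another gave 0.58 in Tim-3+ TIL against naive cells (adjusted p = 0.00245 over all probe sets).

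Among 35 other HIF-1 targets, 7 rose and 2 fell in Tim-3+ against Tim-3- TIL (median 0.23), where 7.77% of all genes rose and 5.77% fell (median 0.011). Against naive cells 20 rose and 3 fell in Tim-3+ TIL (median 0.54), where 20.1% of all genes rose and 21.4% fell (median -0.066). The count for Tim-3- TIL was 16 rising and 3 falling (median 0.36), where 16.1% of all genes rose and 18.3% fell (median -0.063). Hilpda, a lipid droplet protein, rose by 1.86 ± 0.24 between TIL groups (adjusted p = 0.000152), the glycogen branching enzyme Gbe1 by 1.59 ± 0.17 (adjusted p = 2.61e-05) and the endoplasmic reticulum oxidase Ero1a by 0.81 ± 0.12 (adjusted p = 0.000463), each with all Tim-3+ arrays above all Tim-3- arrays, as for Bnip3. Cxcr4, a chemokine receptor, changed by -0.98 ± 0.16 (adjusted p = 0.000700; -0.71 within set A, adjusted p = 0.107). The nuclear receptor Rora was the other gene that fell (-1.20 ± 0.20, adjusted p = 0.000981).

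Against naive cells the transcriptional repressor Bhlhe40 rose the most of these targets, by 7.65 ± 0.21 in Tim-3+ TIL (adjusted p = 4.19e-12) and 7.77 ± 0.23 in Tim-3- TIL (adjusted p = 1.75e-11), at best lower bounds with a naive level of 4.97 ± 0.52. The lipid droplet protein Plin2 rose by 2.06 ± 0.12 in Tim-3+ TIL (adjusted p = 6.70e-09) and by 1.40 ± 0.13 in Tim-3- TIL (adjusted p = 1.76e-06). Higd1a, a mitochondrial protein, rose by 1.27 ± 0.088 in Tim-3+ TIL (adjusted p = 3.13e-08) and by 0.79 ± 0.095 in Tim-3- TIL (adjusted p = 1.61e-05). The glucose transporter Slc2a1 rose by 1.01 ± 0.15 in Tim-3+ TIL (adjusted p = 8.85e-05) and by 0.64 ± 0.17 in Tim-3- TIL (adjusted p = 0.00775). Rora rose by 2.42 ± 0.17 in Tim-3+ TIL (adjusted p = 5.36e-08) and by 3.62 ± 0.19 in Tim-3- TIL (adjusted p = 4.59e-09), but 2 of its other probe sets gave -0.019 and -0.15 in Tim-3- TIL.

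Glycolytic targets rose against naive cells, while Pdk1, which acts after glycolysis, fell. Of 13 measured, 13 rose in Tim-3+ TIL (median 1.11), where 20.1% of all genes rose and 21.4% fell. In Tim-3- TIL 10 rose and 0 fell (median 0.80), where 16.1% of all genes rose and 18.3% fell. Between TIL groups 8 rose and 1 fell (median 0.43), where 7.77% of all genes rose and 5.77% fell. The lactate exporter Slc16a3 rose by 3.14 ± 0.15 in Tim-3+ TIL and 2.03 ± 0.16 in Tim-3- TIL against naive cells (adjusted p = 5.56e-10 and 2.86e-07), and by 1.11 ± 0.17 between TIL groups (adjusted p = 0.000489). Tpi1 and Aldoc, enzymes of glycolysis, rose by 3.12 ± 0.16 and 2.85 ± 0.15 in Tim-3+ TIL against naive cells (adjusted p = 1.48e-09 and 2.02e-09), that of Aldoc at best a lower bound with a naive level of 5.53 ± 0.29. Pgk1 and Ldha rose by 1.11 ± 0.081 and 0.78 ± 0.10 (adjusted p = 5.98e-08 and 2.02e-05).

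Between TIL groups the glucose transporter Slc2a3 rose by 1.62 ± 0.26 (adjusted p = 0.000691), the hexokinase Hk1 by 0.65 ± 0.11 (adjusted p = 0.00154), Aldoc by 0.85 ± 0.17 (adjusted p = 0.00440) and Pgk1 by 0.39 ± 0.093 (adjusted p = 0.0108), and Ldha was at 0.31 ± 0.11 (adjusted p = 0.0985). With 1 array left out, limma's adjusted p for that Pgk1 rise ran from 0.0132 to 0.0563. Slc2a3 and Hk1 did not pass in Tim-3- TIL against naive cells (-0.27 ± 0.24 and -0.046 ± 0.11, adjusted p = 0.443 and 0.789). The other hexokinase, Hk2, rose by 2.60 ± 0.11 in Tim-3+ TIL (adjusted p = 1.31e-10) and by 3.05 ± 0.12 in Tim-3- TIL (adjusted p = 1.82e-10) against naive cells and was the 1 glycolytic gene that fell between TIL groups (-0.46 ± 0.12, adjusted p = 0.0215). This gene was singled out in that comparison after its value was seen.

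**Figure D4:**
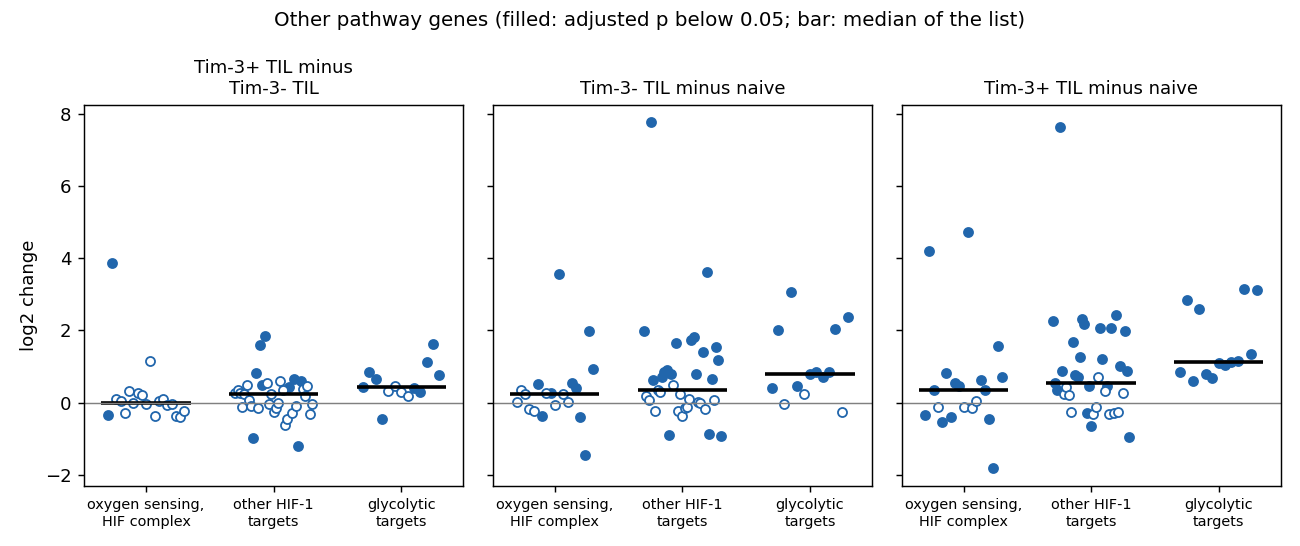
Log2 change (vertical axis) of each gene of the 3 other pathway lists in Tim-3+ TIL minus Tim-3- TIL, Tim-3- TIL minus naive and Tim-3+ TIL minus naive; filled points passed at adjusted p below 0.05 and bars are list medians. The glycolytic list has the highest median in each panel, 0.43, 0.80 and 1.11.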

How the data were processed

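The authors deposited 1 table of linear intensities with 45101 probe sets on 12 arrays (medians 58.7 to 63.0 without controls). Per the submitters' processing notes it was made with RMA and affy; the sources used here give no versions, no step from RMA's log scale to linear values and no statement on joint normalization. The log2 of each deposited value was taken. By the array's annotation 34945 probe sets name a single gene, 932 name more than 1, 9160 have no gene and 64 are controls. A gene took its brightest single-gene probe set by mean over all arrays, which gave 18194 genes, with no filter on dim genes. Values come without detection calls, and the number of arrays limits the precision. Group means of all 12 arrays were fitted together with limma 3.58.1 in R 4.3.3, and changes are two-sided contrasts after default eBayes, ± SE, and group levels are means ± SD. Other probe sets were tested in a fit of all 45037 probe sets. Promoter windows are RefSeq's for GRCm38.p6, and Bnip3l was not looked up elsewhere.

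The members and lists were chosen with earlier results of these data known. Named by rule were all members, the sort markers, up to 4 genes of each pathway list with the smallest adjusted p below 0.05 in a comparison, 8 fixed pathway genes, and the brightest 2 markers of other cells. Tyrp1, Dct, Cd14, Lyz2, the other B cell markers, and Rora between TIL groups were named after their values were seen. So were Col1a2, Col3a1, Dcn, Sparc, Cdh5, Kdr, Hspa1a and Jun. A pathway count is over genes with a value. Alternatives tried were other probe set rules, normalizations, array sets, blocks, a fold minimum and leaving out each array. The fit was tested on simulated data: with a simulated log2 change of 1 in 50 genes, it called 76% of them in Tim-3+ against Tim-3- TIL and in Tim-3- TIL against naive, and 82% in Tim-3+ TIL against naive. At a simulated log2 change of 0.5 it called 22%, 30% and 40% in the 3 comparisons in the order of the text. False calls made up 1.99%, 4.97% and 6.4% of calls. Far fewer genes were changed in the simulation than passed in the data, so these rates need not carry over.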

Additional observations from a re-analysis of the deposited data

Results flagged for a closer look

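Of 18 groups of 4 or 5 arrays examined, 2 for each of the 9 genes, 1 held an array far from the others. Kdm3a stood at 8.92 in naive replicate 2, while the other 4 naive arrays lay between 8.72 and 8.76. Chance gives such a gap in about 5% of groups. The array lies further from the TIL levels than the other naive arrays do.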

How the results depend on the processing

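Of 597 refits of a member's change under other settings or other probe sets, 550 kept their direction and side of the threshold, 13 lost and 17 gained a call, and 17 changed sign with neither value past the threshold. Sign changes in Tim-3+ against Tim-3- TIL were Egln3 within set A (0.51), Ddit4 within set A (-0.0080) and without 1 array (-0.0057 to 0.29), and Pdk1 with the most variable probe set (-0.41), the mean of probe sets (-0.17) and its 3 other probe sets (-0.0099, -0.41, -0.39). In Tim-3- TIL against naive they were Vegfa with the mean of probe sets (0.018), within set B (0.072), without 1 array (-0.23 to 0.010) and with its dimmer probe set (0.14), and Egln1 with quantile normalization (-0.019), a common median (-0.037), the replicate block (-0.0031) and without 1 array (-0.048 to 0.098). In Tim-3+ TIL against naive it was P4ha1 within set B (-0.0075).

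For the pathway genes named by rule, 35 of 1209 refits lost and 21 gained a call. A further 22 changed sign, 2 of them past the threshold. In Tim-3+ against Tim-3- TIL these were Egln2 with a block for array set (0.0014), in set B alone (0.074) and without 1 array (-0.083 to 0.059), and Hif1an with another probe set (0.42). In Tim-3- TIL against naive they were Rora with other probe sets (-0.019, -0.15), Hif1an with another (-0.15), and Arnt, at 0.0060 in the main setting, with another probe set or the most variable one (-0.13), quantile normalization (-0.045), a common median (-0.070), a block for array set (-0.0017), within A alone (-0.0040) and without 1 array (-0.046 to 0.034). In Tim-3+ TIL against naive it was Hif1an with the most variable probe set (0.58, adjusted p = 0.00240), that probe set among all (0.58, adjusted p = 0.00245), another one (0.27), the mean of probe sets (0.24) and within set B (0.033). The cause was not tested.

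In Tim-3+ against Tim-3- TIL, 3 members passed in the main setting, 5 with the mean of probe sets, 5 with the sets as a block, 1 with at least a 2-fold change and 2 to 4 without 1 array. Of pathway genes 20 passed, 31 with the sets as a block and 6 at 2-fold, and of all genes 2463, 1590 within set A (fewer arrays) and 775 at 2-fold. In Tim-3- TIL against naive the 2-fold minimum left 16 of 39 pathway genes and 2183 of 6252 genes, and in Tim-3+ TIL against naive 5 of 8 members, 25 of 51 pathway genes and 2598 of 7554 genes. Of 10 same-numbered array pairs across groups, deviations correlated between -0.15 and 0.41. Among all pairs across groups the sign followed the array set, positive inside a set and negative across sets. The correlations therefore cannot decide pairing, and replicate numbers were not taken as pairs. The main fit has no term for array set. With the replicate number as a block 4, 6 and 8 members passed in the 3 comparisons. Levels below log2 5.71 limit the changes of Vegfa, Arnt2, Bhlhe40 and Aldoc.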
